A study of Homo sapiens with 6 samples.

Results

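The GADD45 and IER genes are 8 genes, most of them named for early or stress-linked expression: GADD45A, GADD45B, GADD45G, GADD45GIP1, IER2, IER3, IER5 and IER5L. They were taken by symbol from the count tables, and all 8 were found among 24462 symbols. The cells were LS 174T, established from a human colorectal adenocarcinoma and labelled as goblet cells. They grew in medium with serum; the 3 control libraries had no treatment, and the other 3 had propionate, which gut bacteria make from fiber, at 4 mM for 4 h. All libraries come from this 1 line, and no label says whether those of a group came from separate cultures. The p-values therefore rest on a spread between libraries that may be only technical. In such bulk RNA, fewer cells of a type and less RNA per cell cannot be told apart.

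The 3 GADD45 genes encode small, acidic, closely related proteins with no known enzyme activity. They act by binding other proteins, among them the kinase MAP3K4 at the head of a p38 and JNK stress pathway, the replication clamp PCNA and the CDK1 and cyclin B1 complex. GADD45A is induced by DNA damage, and GADD45B is induced by NF-kB and TGF-beta signaling. GADD45GIP1 is no paralog: it was named for binding GADD45 proteins, and its product (also called CRIF1 or MRPL59) is part of the large subunit of the mitochondrial ribosome. The IER genes are immediate early response genes, which are switched on within minutes by growth factors or stress without new protein synthesis. IER2, IER5 and IER5L are related in sequence, while IER3 belongs to no such family and encodes a regulator of survival and ERK signaling. IER5 binds protein phosphatase 2A and the heat shock factor HSF1.

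Totals ranged from 11603288 to 12746170 reads per library, and 13605 genes passed the filter on low counts. Each of the 8 genes was among them, with between 74 and 6370 reads in any library. The markers of colon epithelium were all above 1 CPM (10 of 10; CPM is reads scaled to a library total of 1000000), as were 6 of 7 goblet cell markers. CLCA1 was the goblet marker below that level. Of the endothelial markers none was above 1 CPM, and 3 of 4 had no read. Fibroblast markers summed to between 2.91 and 6.38 CPM in control and between 4.91 and 7.21 CPM with propionate, with DCN and PDGFRA at 0. Leukocyte markers summed to between 17.8 and 25.7 CPM and between 14.1 and 20.2 CPM, most of it LYZ, which epithelium can also express, and CD3E was at 0.

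After propionate GADD45B, IER3, IER5 and IER2 were higher, GADD45G was lower, and GADD45A, IER5L and GADD45GIP1 did not pass the test. Thus 4 of the 8 genes rose, against 17.2% of all genes tested, and 1 fell, against 17.0% (quasi-likelihood F test in edgeR, with an adjusted p under 0.05 by Benjamini-Hochberg over all genes tested). In the same 4 genes all 3 propionate libraries lay above all 3 controls, which was so for 22.4% of the genes tested. In GADD45G they lay below, as in 22.7%. With 8 genes these counts are small, and the genes are described one by one below.

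**Figure D1:**
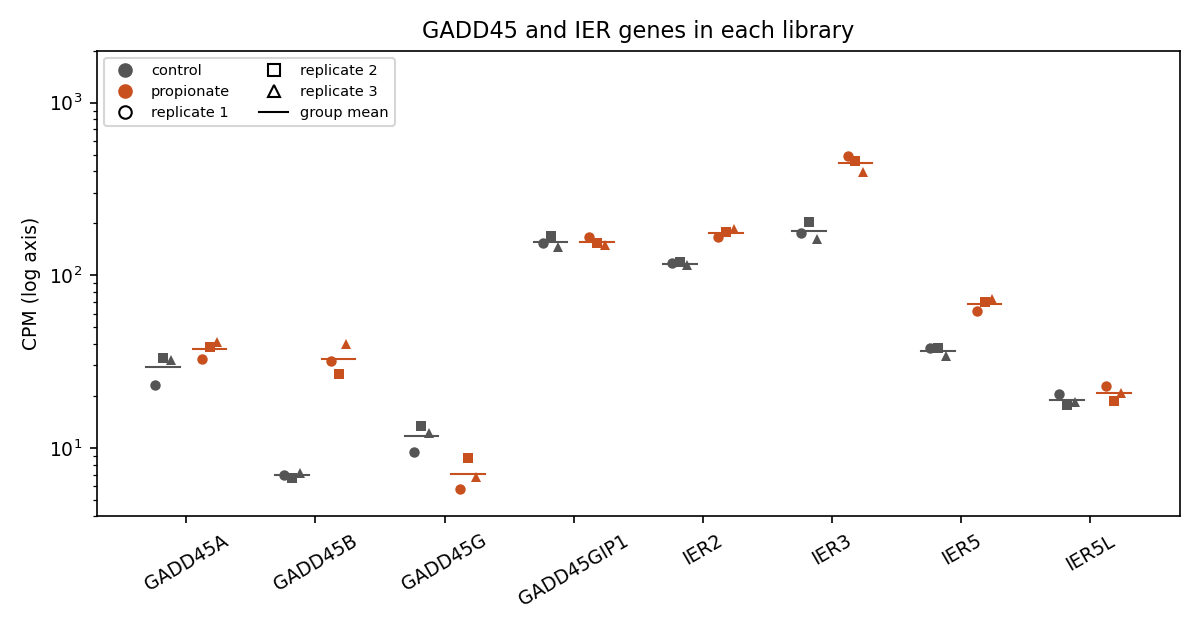
Level of each of the 8 genes in CPM (log axis) in every library: gray symbols are control, orange symbols are propionate, the symbol shape gives the replicate number and the bars are group means. GADD45B, IER2, IER3 and IER5 show orange above gray with no overlap, GADD45G shows the reverse, and the other 3 genes overlap.

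GADD45B had the largest change of the 8 genes. Its level was 7.00, 6.67 and 7.17 CPM in the control libraries and 32.0, 26.9 and 39.9 CPM with propionate. The controls lay within 1 narrow band and each propionate library was far above it, with replicate 3 the highest. The fitted rise was 4.73-fold (log2 fold change 2.24 with SE 0.159, adjusted p = 7.87e-09 in edgeR), from 6.95 ± 0.250 to 32.9 ± 6.52 CPM (mean ± SD, n = 3). By replicate number, the propionate library was 4.57, 4.03 and 5.56 times its control. Ordered by log2 fold change, GADD45B stood at place 124 of the 13605 genes tested.

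GADD45G, the paralog best known for cytokine-induced expression, went the other way. It was at 9.44, 13.3 and 12.2 CPM in control and at 5.74, 8.68 and 6.77 CPM with propionate. The highest propionate library stayed below the lowest control, by a small margin. GADD45G fell 1.65-fold (log2 fold change -0.72, SE 0.195, edgeR adjusted p = 0.00718), from 11.7 ± 2.00 to 7.06 ± 1.49 CPM (n = 3). These values rest on 410 reads over the controls and 262 with propionate. The 3 same-number ratios were 0.608, 0.650 and 0.556.

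GADD45A, whose product is tied to growth arrest after DNA damage, was at 23.0, 33.3 and 32.3 CPM in control and at 32.7, 38.6 and 41.0 CPM with propionate. Control library 1 was the low one, and 1 propionate library lay within the range of the controls. The fitted difference was 1.26-fold and missed the threshold (log2 fold change 0.34, SE 0.134, edgeR adjusted p = 0.0568). With the replicate number as a block it passed (log2 fold change 0.35, adjusted p = 0.00382). Its same-number ratios were 1.42, 1.16 and 1.27. In that blocked fit 5 of the 8 genes were higher, where 21.9% of all genes were, and GADD45G was again the gene that fell, where 22.6% of all genes did. Without control library 1 the log2 fold change of GADD45A was 0.18 (adjusted p = 0.307), and it passed without control library 2, control library 3 or propionate library 1 (adjusted p between 0.0369 and 0.0392).

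Ratios of the paralogs, taken within each library, therefore differed between the groups. The log2 ratio of GADD45B to GADD45A reads was -1.72, -2.32 and -2.17 in control and -0.03, -0.52 and -0.04 with propionate. GADD45A gave several times as many reads as GADD45B in each control, and nearly the same number in 2 propionate libraries. The ratio was 3.66-fold higher with propionate (difference 1.87 on the log2 scale). GADD45G to GADD45A went from -1.34 ± 0.0652 to -2.42 ± 0.235 on the log2 scale, a 2.12-fold lower ratio. GADD45G to GADD45B went from 0.73 ± 0.285 to -2.22 ± 0.512, a 7.75-fold lower ratio, so GADD45G gave more reads than GADD45B in each control and fewer in each propionate library. The groups did not overlap in any of the 3 ratios. Of all tested genes, 40.9% had a ratio to GADD45A with no overlap, and 96.7% had such a ratio to GADD45B. Each p was 0.1 by an exact two-sided permutation test, the smallest that 3 against 3 libraries allow, and 0.1 adjusted over the 9 ratios examined. A ratio within a library needs no scaling factor, but with a change in numerator and denominator it does not say which gene moved.

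The promoters of these genes are shown because the paralogs that rose and fell can be set side by side. The stretches are the 150 bases before the transcript start in RefSeq (GRCh38.p14, a later build than that of the counts), written 5′ to 3′ on the gene's strand. Capitals mark matches to any motif searched on either strand: CCAAT, the TATA forms TATAAA and TATATAA, the GC box GGGCGG, the cAMP response element TGACGTCA and its core TGACG, which it contains, AP-1 TGANTCA, and the CArG box and NF-kB site by name. TATATAA was added after the sequences were seen. GADD45B lies at chr19:2475977-2476126 (plus strand) and GADD45G at chr9:89604862-89605011 (plus strand).
GADD45B: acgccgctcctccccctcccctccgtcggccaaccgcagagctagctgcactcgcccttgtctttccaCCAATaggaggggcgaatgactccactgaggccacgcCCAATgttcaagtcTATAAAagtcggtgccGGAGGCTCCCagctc
GADD45G: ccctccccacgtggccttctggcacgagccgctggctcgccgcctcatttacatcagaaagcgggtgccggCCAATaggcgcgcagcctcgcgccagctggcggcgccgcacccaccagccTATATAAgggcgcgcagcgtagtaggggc
GADD45B had CCAAT 82 and 45 bases before the start and TATAAA 31 bases before it, and the capitals near the start are a match to the NF-kB site on the opposite strand. GADD45G had CCAAT 79 bases and TATATAA 29 bases before the start. GADD45B also matched the NF-kB site 163 bases before the start, outside the stretch shown. Of the 6 genes with a promoter here, 2 matched this site: GADD45B and GADD45GIP1, the latter 87 bases before its start. Of 35116 RefSeq promoters of 300 bases (250 before to 50 after the start), 34.6% held CCAAT, 11.5% TATAAA, 2.57% TATATAA and 11.3% the NF-kB site. A match is a run of letters and not a shown binding site.

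IER3 had the next largest rise. It was at 175.7, 204.8 and 162.7 CPM in control and at 494.1, 457.5 and 395.9 CPM with propionate. Every propionate library was well above every control. IER3 rose 2.48-fold (1.31 on the log2 scale with SE 0.0980, adjusted p = 1.63e-08 in edgeR). The tables list IER3 on 6 lines, and 1 of them held all of its reads, so summing the lines changed nothing. Its same-number ratios were 2.81, 2.23 and 2.43. In GENCODE release 29 the antisense gene IER3-AS1 covers the 3′ end of IER3 on the opposite strand. With the strand setting of the counting not given, reads of the pair could not be told apart.

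IER5, the partner of HSF1 and protein phosphatase 2A, was at 37.9, 38.0 and 33.9 CPM in control and at 62.4, 70.2 and 72.5 CPM with propionate. The lowest propionate library was far above the highest control. It rose 1.87-fold (0.90 on the log2 scale with SE 0.0999, adjusted p = 1.46e-06 in edgeR). IER2, a nuclear protein that is among the fastest growth factor responses, was at 117.2, 118.6 and 115.2 CPM in control and at 166.3, 177.2 and 186.1 CPM with propionate. The controls of IER2 were closely alike (SD 1.72 CPM) and each propionate library was higher. IER2 rose 1.51-fold (log2 fold change 0.59, SE 0.0805, edgeR adjusted p = 1.40e-05).

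IER5L, the least studied of the group, was at 20.4, 17.6 and 18.4 CPM in control and at 22.9, 18.6 and 20.7 CPM with propionate. The groups overlapped, and the fitted difference was 1.10-fold (log2 fold change 0.14, SE 0.132, edgeR adjusted p = 0.444). IER5L rests on 660 reads over the controls and 771 with propionate. Antisense genes overlap IER2 and IER5L in the annotation, and their levels were not analysed here. Its paralogs IER5 and IER2 changed by more: the log2 ratio of IER5L to IER5 went from -0.96 ± 0.127 to -1.72 ± 0.246, and that of IER5L to IER2 from -2.64 ± 0.113 to -3.09 ± 0.206. These ratios were 1.70-fold and 1.37-fold lower, with no overlap between groups.

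The remaining IER ratios also separated the groups. IER3 to IER2 was 0.58, 0.79 and 0.50 in control and 1.57, 1.37 and 1.09 with propionate on the log2 scale, a 1.65-fold higher ratio. IER5 to IER2 was 1.24-fold higher, IER5 to IER3 was 1.33-fold lower and IER5L to IER3 was 2.26-fold lower. Of the 3 IER genes that rose, IER3 therefore rose most, then IER5 and then IER2 in these libraries. Each ratio had an exact permutation p of 0.1, the smallest possible, also after adjustment. Such separation was common: 74.5% of the tested genes had a ratio to IER2 with no overlap, 90.0% a ratio to IER3 and 83.6% a ratio to IER5.

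**Figure D2:**
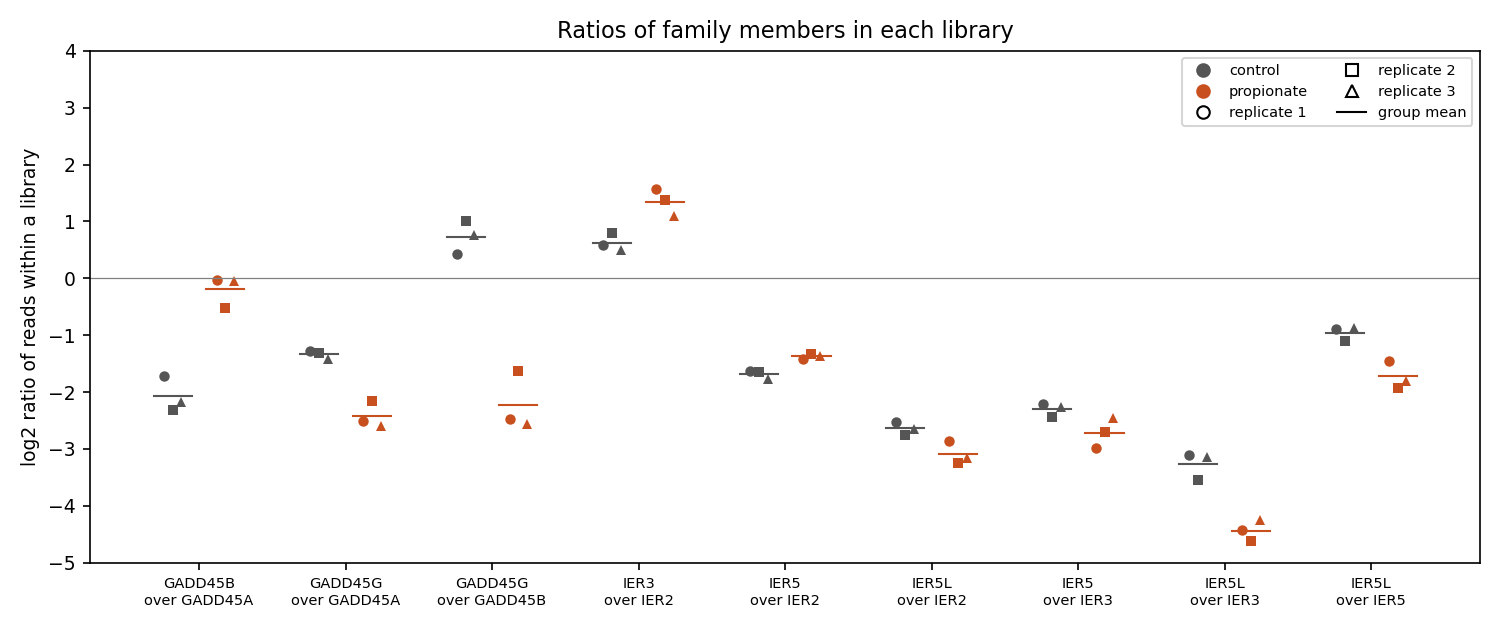
Log2 ratio of the reads of 2 family members within each library, for the 3 GADD45 pairs and the 6 IER pairs: gray is control, orange is propionate, symbol shape is the replicate number and bars are group means. GADD45G over GADD45B shows the widest gap, from a mean of 0.73 in control to -2.22 with propionate.

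The promoters of IER2, IER5 and IER5L are shown to set the paralogs that rose beside the one that did not pass. They lie at chr19:13150261-13150410 (plus strand), chr1:181088550-181088699 (plus strand) and chr9:129178262-129178411 (minus strand) of GRCh38.p14, with capitals as above.
IER2: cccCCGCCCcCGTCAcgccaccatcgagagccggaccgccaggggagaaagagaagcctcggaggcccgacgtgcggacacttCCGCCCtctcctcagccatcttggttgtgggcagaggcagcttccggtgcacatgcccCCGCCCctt
IER5: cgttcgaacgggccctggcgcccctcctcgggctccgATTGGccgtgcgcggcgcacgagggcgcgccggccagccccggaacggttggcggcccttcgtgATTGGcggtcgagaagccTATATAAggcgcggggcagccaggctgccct
IER5L: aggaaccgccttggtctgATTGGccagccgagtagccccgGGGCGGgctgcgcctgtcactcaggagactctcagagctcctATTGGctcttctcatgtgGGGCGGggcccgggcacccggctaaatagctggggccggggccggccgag
IER5 and IER5L each had 2 reversed CCAAT boxes (ATTGG), and in both the 2 lay 64 bases apart. IER5 had TATATAA 31 bases before the start, as GADD45G had at 29 bases, and IER5L held neither TATA form in this window. IER2 had neither CCAAT nor a TATA form but 3 GC boxes on the opposite strand before the start, and 1 more after it. GC boxes were found in 45.0% of all promoters. IER2 was the only one of the 6 genes in the promoter table with the core TGACG, found in 24.6% of promoters. None of the 6 had TGACGTCA (1.85% of promoters), AP-1 (7.71%) or a CArG box (1.29%) in its window. GADD45A and IER3 were not in the promoter table.

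GADD45GIP1 did not differ between groups beyond the spread. It was at 154.4, 168.2 and 145.5 CPM in control and at 165.5, 154.6 and 149.6 CPM with propionate. The libraries were interleaved (0.00 on the log2 scale with SE 0.0839, adjusted p = 0.973 in edgeR). The other 51 genes of the large mitochondrial ribosomal subunit were mostly lower or not called: 20 fell and 3 rose (45.1% called, against 34.2% of all genes), with a median log2 fold change of -0.17 where that of all genes was -0.01. Without control library 3, 13 were called as lower, in a fit that called 14.2% of all genes as lower against 17.0% with every library. MRPL15 fell 1.86-fold, from 86.8 ± 1.20 to 46.6 ± 4.78 CPM (adjusted p = 9.04e-07), MRPL27 fell 1.56-fold, MRPS30 fell 1.59-fold and MRPL45 fell 1.32-fold. MRPL55, MRPS18A and MRPL41 rose between 1.21-fold and 1.34-fold, and the calls of MRPS18A and MRPL41 were each lost without 1 propionate library (adjusted p = 0.0555 without library 1 and 0.0940 without library 2). With the GC trend removed and no block, and with the block and the trend on the GC content of the last 500 bases removed, 0 genes of the list were called as higher. Over all genes these fits called 1986 and 2558 as higher, against 2343 in the fit without a block or GC step.

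The transcripts of these genes differ in GC content, with which read counts can vary from library to library. The GC content of the longest transcript in GENCODE release 29 was 49.8% for IER5, 51.5% for GADD45A, 57.4% for GADD45B, 58.5% for IER3, 60.3% for GADD45GIP1, 61.7% for IER2, 63.9% for GADD45G and 65.0% for IER5L. After removal of each library's GC trend, with the block kept, the log2 fold change was 2.06 for GADD45B, 1.11 for IER3, 0.88 for IER5, 0.33 for IER2 and 0.30 for GADD45A, and all 5 were called as higher. GADD45G was at -1.03 and was called as lower. IER5L turned to -0.18 (adjusted p = 0.209). GADD45GIP1 turned to -0.23 and was called as lower (adjusted p = 0.00277). So 5 genes were higher and 2 lower in this fit, where 18.7% of all genes were higher and 25.6% were lower. IER5 moved least from the blocked fit without this step and IER5L moved most. That order is built in, as the step shifts each gene by its GC content. The directions of GADD45B, IER3, IER5, IER2, GADD45A and GADD45G were the same in all 3 fits.

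**Figure D3:**
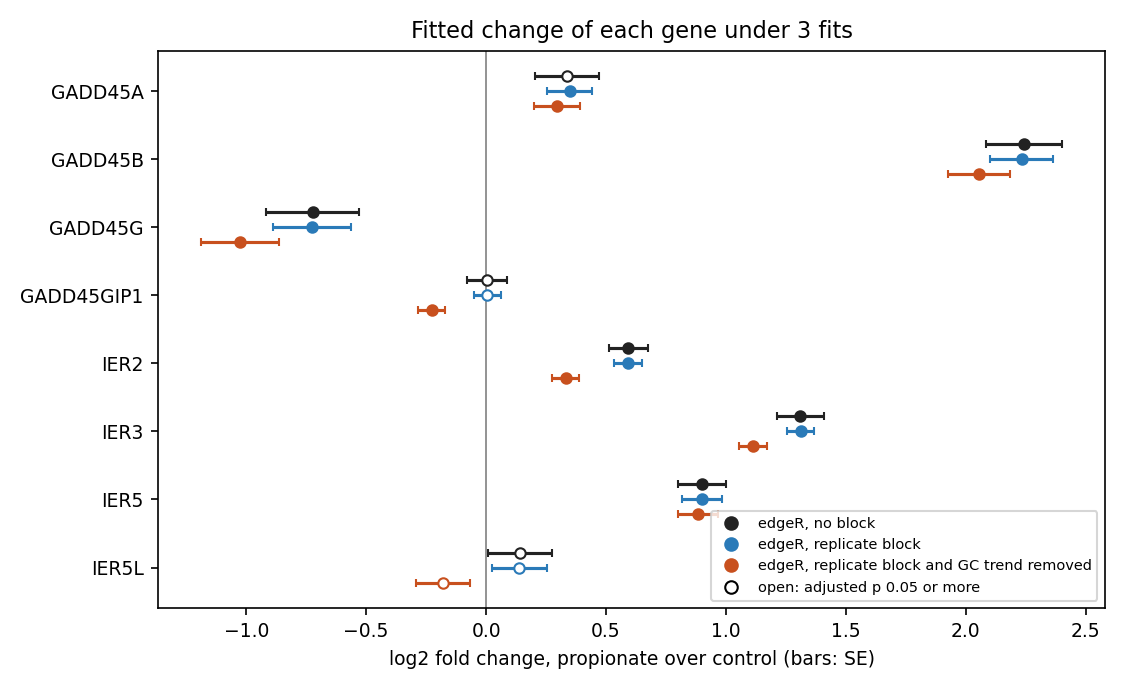
Fitted log2 fold change of propionate over control for each gene, with bars of 1 SE, in edgeR without a block (black), with the replicate block (blue) and with the block and the GC trend removed (orange); filled symbols have an adjusted p under 0.05. GADD45B, IER3, IER5, IER2 and GADD45G are filled in all 3 fits, GADD45A in the blocked fits and GADD45GIP1 only with the GC trend removed.

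Other early response genes give the setting for these values. Of 60 listed genes that growth factors or stress induce early, 54 were tested, and 23 were higher and 4 lower (50.0% called, against 34.2% of all genes). The median log2 fold change of the list was 0.34, against -0.01 over all genes. Once the block and the GC trend were both in the fit, the list median was 0.19, against -0.04 over all genes. RHOB, a stress-induced small GTPase, rose 2.11-fold, from 21.0 ± 1.76 to 44.3 ± 2.41 CPM (n = 3, edgeR adjusted p = 6.19e-07). DUSP5, a phosphatase that inactivates nuclear ERK, rose 2.93-fold, from 4.63 ± 0.680 to 13.6 ± 1.67 CPM. IRF1 rose 1.80-fold. ARC rose from 14 to 179 reads, an 11.8-fold fitted change. ARC, like FOS and FOSB below, passed the filter on low counts only through the propionate libraries. These genes are among the 23 called as higher, so that count rests in part on the filter. Without control library 1 the log2 fold change of ARC was 4.75 against 3.56, so the fold itself was 2.28 times as large.

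Among the AP-1 genes FOS rose 4.88-fold on 19 control and 99 propionate reads, JUNB rose 1.56-fold, JUND rose 1.39-fold and JUN rose 1.27-fold. FOSL1 was at 10.9 and 8.76 CPM (adjusted p = 0.211) and FOSL2 at 6.98 and 8.45 CPM (adjusted p = 0.274). The calls of JUN and EGR1 (1.55-fold) were lost without control library 1 (adjusted p = 0.0921 and 0.173). That of FOSB (2.58-fold) was lost without control library 3 (adjusted p = 0.117). The list was not uniform. ID3, an inhibitor of helix-loop-helix factors, fell 2.12-fold, NFKBIA, the NF-kB inhibitor and an NF-kB target, fell 1.78-fold, SPRY2 fell 1.69-fold and CCNL1 fell 1.38-fold. ATF3 was at 17.4 and 16.2 CPM (adjusted p = 0.613), KLF6 at 82.0 and 75.0 CPM (adjusted p = 0.374), PPP1R15A, also called GADD34, at 27.9 and 26.3 CPM (adjusted p = 0.632), and MYC at 22.3 and 19.3 CPM (adjusted p = 0.400). These 4 genes, named after their values were seen, did not pass the test.

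**Figure D4:**
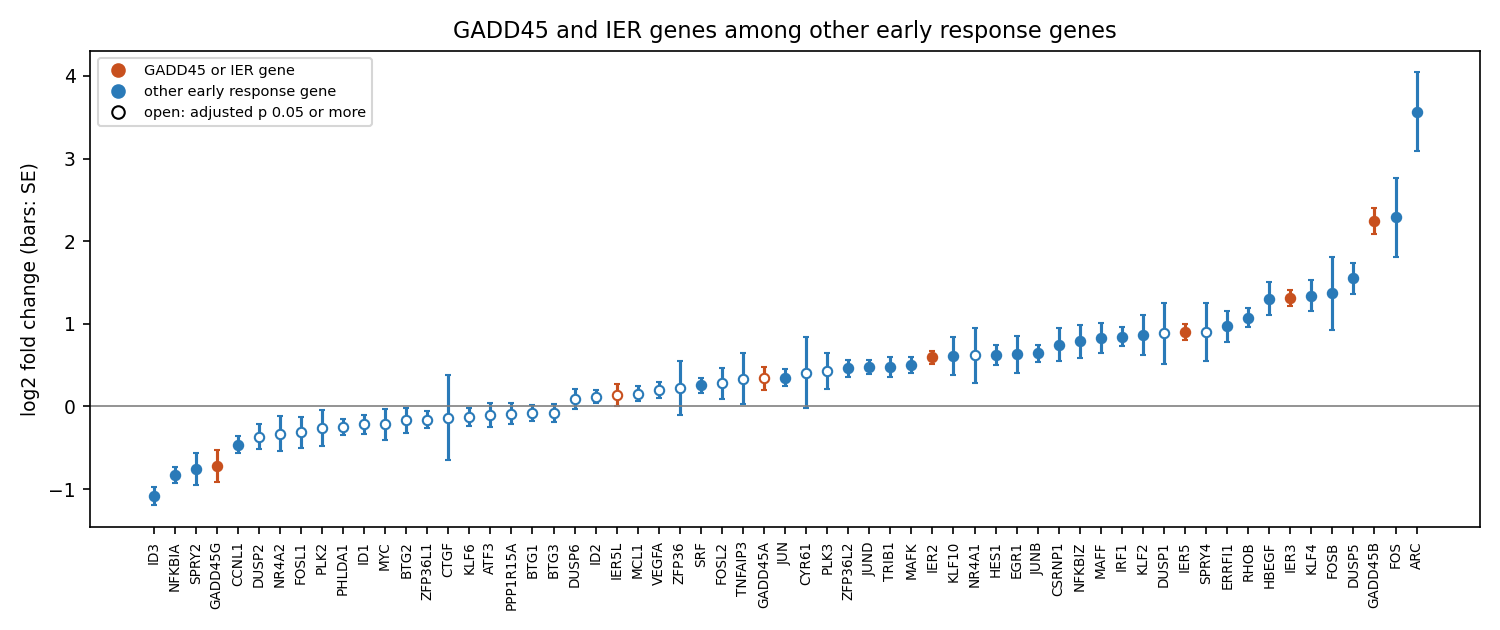
Log2 fold change with SE of the 54 tested early response genes (blue) and of the 7 GADD45 and IER genes (orange; GADD45GIP1 is left out), ordered by value; open symbols have an adjusted p of 0.05 or more. GADD45B is the third highest after ARC and FOS, and GADD45G is the fourth lowest, beside SPRY2 and CCNL1. ARC and FOS passed the filter on low counts only through the propionate libraries.

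Another list holds genes whose products bind the GADD45 proteins, regulate them or act with them. Of 30 tested genes 15 were lower, 5 higher and 10 not called (66.7% called, against 34.2% of all genes), with a median log2 fold change of -0.34. Among the cell cycle partners, CCNB1 fell 1.82-fold, from 150.1 ± 3.85 to 82.2 ± 4.40 CPM (edgeR adjusted p = 2.75e-07), CDK1 fell 1.40-fold and PCNA fell 1.32-fold. AURKA, a mitotic kinase, fell 2.44-fold. Of the kinases, MAP3K4 fell 1.40-fold and MAP2K7, which GADD45B can block, fell 1.58-fold, while MAP2K3, which activates p38, rose 1.49-fold. Of the DNA demethylation genes with which GADD45A has been linked, TET2 fell 2.20-fold, TET3 fell 2.16-fold and TDG fell 1.61-fold. The repair genes MBD4, at 336.9 and 318.8 CPM (adjusted p = 0.473), and APEX1, at 60.0 and 45.2 CPM (adjusted p = 0.0728), did not pass. Of the regulators, NFKB1 fell 2.13-fold, and RELA was at 101.8 and 118.4 CPM (adjusted p = 0.0619). SMAD3 rose 1.55-fold while its partner SMAD4 fell 1.70-fold, and STAT3 rose 1.51-fold. CDKN1A, the p21 inhibitor of cyclin-dependent kinases, rose 1.66-fold, while MDM2 fell 1.29-fold.

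The 32 partners and regulators of the IER proteins were near the background, with 6 higher and 3 lower (28.1% called, against 34.2% of all genes) and a median log2 fold change of -0.00. The blocked fit called 9 higher and 6 lower, where it called 44.5% of all genes. HSPA1B, a heat shock gene that HSF1 drives, rose 2.29-fold, from 63.6 ± 6.52 to 146.0 ± 13.2 CPM (edgeR adjusted p = 3.61e-08), and the HSP70 cochaperone gene DNAJB1 rose 1.35-fold. HSPA1A is nearly the same in sequence, which leaves the division of reads between the 2 uncertain: HSPA1A was at 1.52 and 1.74 CPM (adjusted p = 0.787). Most of the other chaperone and cochaperone genes of the list (HSPA8, HSPB1, HSPH1, HSP90AA1 and BAG3) did not pass the test. MAPK3, which encodes ERK1, rose 1.58-fold, and CDC25B rose 1.22-fold, though not without propionate library 3 (adjusted p = 0.0503). CREB1 fell 1.34-fold, ELK4 fell 1.47-fold and PPP2R5A, a regulatory subunit of protein phosphatase 2A, fell 1.21-fold, a call that was lost without propionate library 2 (adjusted p = 0.123).

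Genes with the nearest profiles were found by the root mean square difference over the 6 libraries of log2 CPM less each gene's control mean, among genes whose mean over all 6 libraries was above 10 CPM. CDKN1C, CORO2A and ST3GAL2, named next, had control means under that level and passed only through the propionate libraries, so this filter bears on which genes appear. Nearest to GADD45B was CDKN1C, the p57 inhibitor of cyclin-dependent kinases, at a difference of 0.197, with 8.22 ± 0.690 CPM in control and 33.2 ± 2.05 CPM with propionate. CORO2A (0.264) and LOC606724 (0.269), a copy of CORO1A whose reads may be shared with it, followed. Nearest to IER3 were UAP1L1 (0.0942), RRAS (0.104) and ST3GAL2 (0.109), and among the nearest to IER5 was MSRB1 (0.0441). IER2 was closest to LINC01296 (0.0347), SLC9A3R1 (0.0365) and CCDC92 (0.0371). GADD45G was closest to NUPR1 (0.0754), a stress-linked chromatin gene that went from 283.8 ± 38.1 to 178.9 ± 33.4 CPM, and to RFX5 (0.0910) and BTN3A2 (0.10). With 2 groups of 3 libraries such likeness is mostly a like change between the groups.

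**Figure D5:**
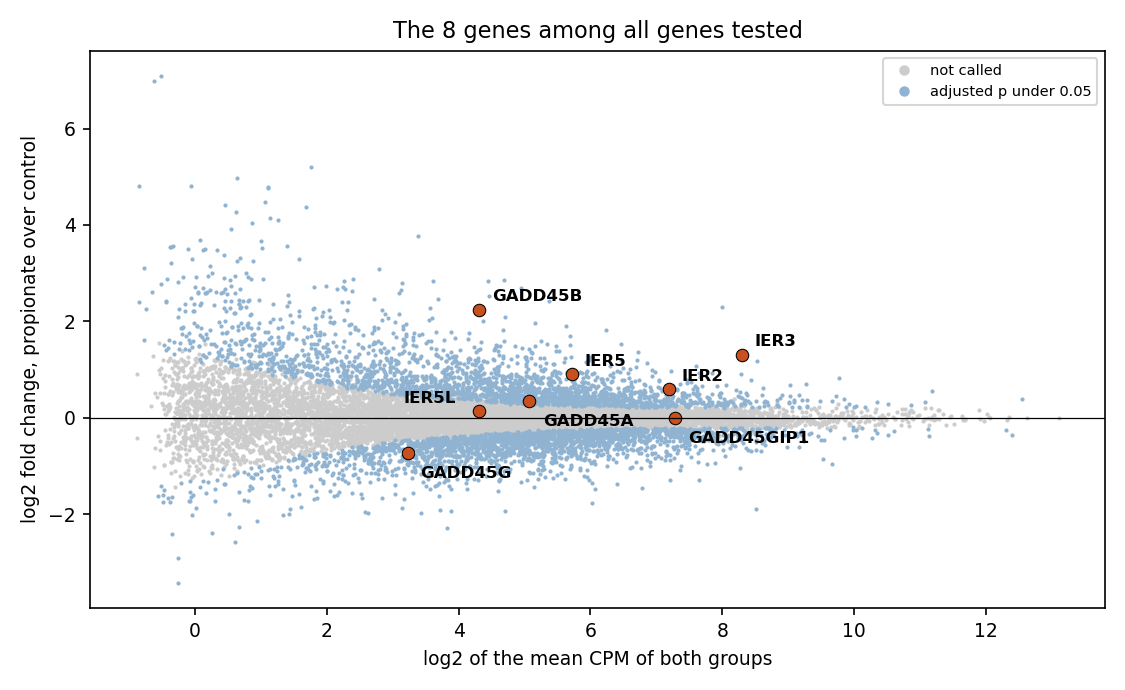
Log2 fold change of propionate over control against the log2 of the mean CPM of both groups for all 13605 genes tested (gray not called, blue adjusted p under 0.05), with the 8 genes in orange. GADD45B (2.24) and IER3 (1.31) lie highest of the 8, GADD45G (-0.72) lies among the genes called as lower, and GADD45A, IER5L and GADD45GIP1 lie within or beside the gray band.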

How the data were processed

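For each library the authors deposited 1 table of raw counts by gene symbol. Bowtie2, edgeR, hg19 and GRCh37 are named, without version or role, per the submitters' processing notes. The counter, annotation and strand setting: not given in the sources used here. Libraries were made with a Lexogen Quant-Seq kit, per the labels' protocols. Groups and replicate numbers came from the titles. Each table had 25737 lines, and counts of the 286 symbols on several lines were summed. Libraries of a group differed by more than sampling noise (chi-square per degree of freedom 6.01 to 8.85).

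The test was that of edgeR 4.0.16 in R 4.3.3, with filterByExpr, TMM factors, quasi-likelihood F test, no covariate, adjusted p under 0.05. The script was tested on simulated data. CPM used library sizes of the genes kept, times TMM factors. Same-number libraries deviated together (r = 0.240, 0.396 and 0.442 over genes above 10 CPM), so the replicate block was run as a paired alternative; no label states a shared day. Further alternatives were DESeq2 1.42.0, voom from limma 3.58.1, other filters and scaling factors, removal of each library's GC trend (spline, 4 degrees of freedom, GC known for 93.4% of genes tested) and leaving out each library.

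Named were the 8 genes, up to 4 called genes per list and direction by smallest p, the 3 nearest profiles (pseudocount 0.5) and genes overlapping a member; other genes of the lists were named after their values were seen. Some genes that this rule names are not reported here. The members and lists were chosen with earlier results of these data known.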

Additional observations from a re-analysis of the deposited data

How the results depend on the processing

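GADD45B, IER2, IER3, IER5 and GADD45G kept their direction and call under all 19 alternatives each, with log2 fold changes of 2.02 to 2.37, 0.33 to 0.63, 1.11 to 1.41, 0.85 to 0.96 and -1.04 to -0.59. Among these was taking a gene's line with the most reads instead of the sum. It was no test here, as each of the 8 genes had reads on 1 line only. GADD45A passed the threshold at a log2 fold change of 0.36 with upper-quartile factors, 0.33 with no filter on low counts, 0.35 with the replicate block, 0.30 with the block and the GC trend removed and 0.42 with the block and the 3′ end GC trend removed (the last 500 bases, an alternative added after seeing the data). The replicate block changed no other call among the 8 genes. Leaving out each library GADD45A ran from 0.18 to 0.43. GADD45GIP1 turned to -0.23 with the GC trend removed with or without the block and to -0.19 with the 3′ end GC trend, and ran from -0.047 to 0.062 leaving out each library. IER5L turned to -0.18 with the GC trend removed, with or without the block, but stayed at 0.064 with the 3′ end GC trend removed. The 3 GC versions therefore called 2 of the 8 genes as lower, where the fit without them called 1. For the IER partner list 15 genes were called with the block, 14 with the block and GC trend removed and 15 with the 3′ end version, against 9, while these fits called 44.5%, 44.3% and 45.5% of all genes, against 34.2%. Its lower members numbered 3, but 5 with no filter, 6 with the block and 6 to 9 in the GC versions, and higher members 6, but 3 with the GC trend removed without the block. The mitochondrial ribosome list had 15 to 21 calls leaving out each library, against 23 (15 without control library 3, where 28.9% of all genes were called); with the 3′ end version 34 were lower and 0 higher, and 0 were higher with the GC trend removed without the block. Early response genes called as lower went from 4 to 8 with the block, 11 with the block and GC trend removed, 7 with the GC trend alone and 10 with the 3′ end version. Over all genes 2316 were lower, but 2422 with no filter, 3074 with the block and 2653 with the GC trend removed without the block. In the blocked GC versions 3478 and 3630 of all genes were lower. Of all genes 2343 were higher, but 1986 with the GC trend removed without the block and 2558 with the 3′ end version. The list counts above therefore stand beside a background that also moved. The cause of these moves was not tested. The within-library ratios kept their direction and moved by less than the SD pooled over both groups in all 7 alternatives each. That outcome was fixed beforehand and is no test. Groups that do not overlap cannot change direction when 1 library is left out, and with 3 libraries per group the mean cannot then move by that SD. Taking the line with the most reads left every ratio unchanged. Depth limits the values that rest on few reads, such as those of GADD45G (74 to 156 reads per library) and GADD45B in control (244 reads in all).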
